A study of Homo sapiens with 6 samples.

Results

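The comparison set the 3 arrays of the cell line HEL against the 3 arrays of the cell line SET2, which are all 6 arrays of the study. HEL is an erythroleukemia line, and SET2 comes from a myeloproliferative neoplasm that had turned into leukemia. The labels call both acute myeloid leukemia lines, and both are known for a mutation that keeps the kinase JAK2 active. In each line 1 array came from cells with the empty lentiviral backbone pLKO (control), 1 from cells with an shRNA against IGF1R (shIGF1R) and 1 from cells with a miR-125a sponge. All 6 cultures were selected in puromycin for 96 h before the RNA was taken. The comparison was made within each treatment and then combined, and it covered 22320 genes, each the average log2 value of its probe sets. Each group is thus a single line with 3 different constructs and not a set of replicate cultures. The p-values measure only the spread between these arrays, and what is given below belongs to the pair of lines and to no wider class of leukemia.

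Blood cell lineages are told apart by their own sets of proteins. Red cell precursors fill with globin and heme and build a spectrin-based membrane, while megakaryocytes load granules and display the adhesion receptors that platelets later use. Myeloid cells carry granule enzymes and surface integrins, stem and progenitor cells carry CD34 and HOX factors, and antigen presentation depends on HLA genes that cytokines such as interferons raise. JAK2 carries the signal of several of the cytokine receptors involved, among them the erythropoietin receptor.

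All levels below are log2 signals, a difference is HEL minus SET2, and a difference of 1 is 2-fold. Array values are written in the order control, shIGF1R, sponge. A gene is called where limma gave an adjusted p below 0.05 over all 22320 genes. The called genes were 5475, or 24.5% of those tested, with 2582 higher in HEL (11.6%) and 2893 lower in HEL (13.0%). At 2-fold or more, 815 were higher in HEL (3.65%) and 989 were lower in HEL (4.43%). All 3 HEL arrays lay above or below all 3 SET2 arrays for 8760 genes, which is 39.2%. Most genes named below were picked because they were called, so a lack of overlap at them follows largely from that choice. The median difference over all genes was 0.01 and its SD was 0.64.

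The array medians lay between 5.69 and 5.75. Gene levels correlated at 0.976 to 0.991 between HEL arrays, 0.987 to 0.993 between SET2 arrays, and 0.923 to 0.933 between the lines. The HEL shIGF1R array stood apart: 505 genes lay 2-fold or more off the mean of the other HEL arrays. Counted in the same way within each line, there were 94 for HEL control, 80 for the HEL sponge array, and 41 to 116 for the SET2 arrays. Counts of a list without 1 treatment, which leaves out an array of each line, are given where they move a count by over 1.5 times. They are to be read beside the share called over all genes, which was 24.5% on all arrays. It was 14.4% without the control arrays, 28.4% without the shIGF1R arrays and 12.9% without the sponge arrays. Where the median or the brightest probe set ended the call of a gene recomputed with it, that value is given too. IGF1R itself was not measurably reduced on either array labelled shIGF1R. It had 8.64, 8.56 and 8.81 in HEL arrays, against 8.32, 8.33 and 8.37 in SET2 arrays. All 3 HEL arrays were above all 3 SET2 arrays, but the difference of 0.33 (95% confidence interval 0.05 to 0.61) missed the threshold after adjustment (adjusted p = 0.094).

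Genes were ranked by difference among called genes with the same sign under all 3 treatments and at least 3 probe sets. Small RNAs, unnamed symbols, Y-linked genes and XIST were left out of this ranking. Outside it, differences reached -6.44 in a run on chromosome X that holds XIST, and -6.33 among SNORD113 and SNORD114. The genes with the largest differences in the ranking were high in one line and low in the other under each of the 3 treatments. F2RL2, a protease-activated receptor of the thrombin receptor family, had 11.22, 12.02 and 11.45 in HEL arrays, against 4.41, 4.26 and 4.24 in SET2 arrays. The difference was 7.26 (SE 0.19, adjusted p = 6.62e-06). MLLT3, a chromatin reader and a known fusion partner of KMT2A in leukemia, had 9.39, 10.00 and 9.77 in HEL arrays, against 3.63, 3.87 and 3.83 in SET2 arrays. Both genes were thus at least 5 log2 units higher in HEL on every treatment. HBE1, the embryonic beta-like globin, had 10.49, 10.67 and 10.31 in HEL arrays, against 5.64, 4.67 and 5.02 in SET2 arrays, a difference of 5.38. SELP, the P-selectin of platelet granules and endothelium, had 9.76, 10.06 and 9.58 in HEL arrays, against 5.40, 5.50 and 4.99 in SET2 arrays. The lines did not overlap at either gene. The 15 genes with the largest rise also included HOXB9 (4.47) and HOXD13 (4.07), a pair of homeobox factors, the complement receptor relative CR1L (4.50), the matrix protein gene FREM1 (4.13), the serine protease gene TMPRSS3 (3.83) and IGFBP5 (3.65), which encodes a binding protein of insulin-like growth factors. CAAP1 (4.63), FOCAD (4.26) and PLAA (4.03) were in the same group and are taken up again with their neighbours on chromosome 9.

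Among the genes lower in HEL, MYO16, an unconventional myosin gene, had 4.08, 4.04 and 4.11 in HEL arrays, against 9.89, 10.01 and 9.92 in SET2 arrays. CD38, which encodes a surface enzyme that breaks down NAD and is used as a marker of progenitor and plasma cells, had 3.73, 3.91 and 3.83 in HEL arrays, against 9.42, 9.29 and 9.45 in SET2 arrays. The differences were -5.86 for MYO16 and -5.57 for CD38 (adjusted p = 3.96e-06). DOCK8, an activator of CDC42 in leukocytes, had 3.96, 3.79 and 3.83 in HEL arrays, against 9.38, 9.36 and 9.38 in SET2 arrays. HEL was low and SET2 high at these 3 genes under every treatment, and the arrays of a line lay close together. GTSF1 (-5.69), known from piRNA silencing in germ cells, APP (-4.80), the amyloid precursor protein gene, and ENPP3 (-4.92), a surface nucleotidase of basophils and mast cells, showed the same pattern. ZNF93, a KRAB zinc finger gene, differed on the arrays of 1 treatment by less than on the others: it had 4.48, 7.50 and 4.37 in HEL arrays, against 9.75, 9.62 and 9.69 in SET2 arrays. The HEL shIGF1R array was 3 log2 units above the other HEL arrays there, the SE was 0.58, and the gene was still called (adjusted p = 0.00273).

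**Figure D1:**
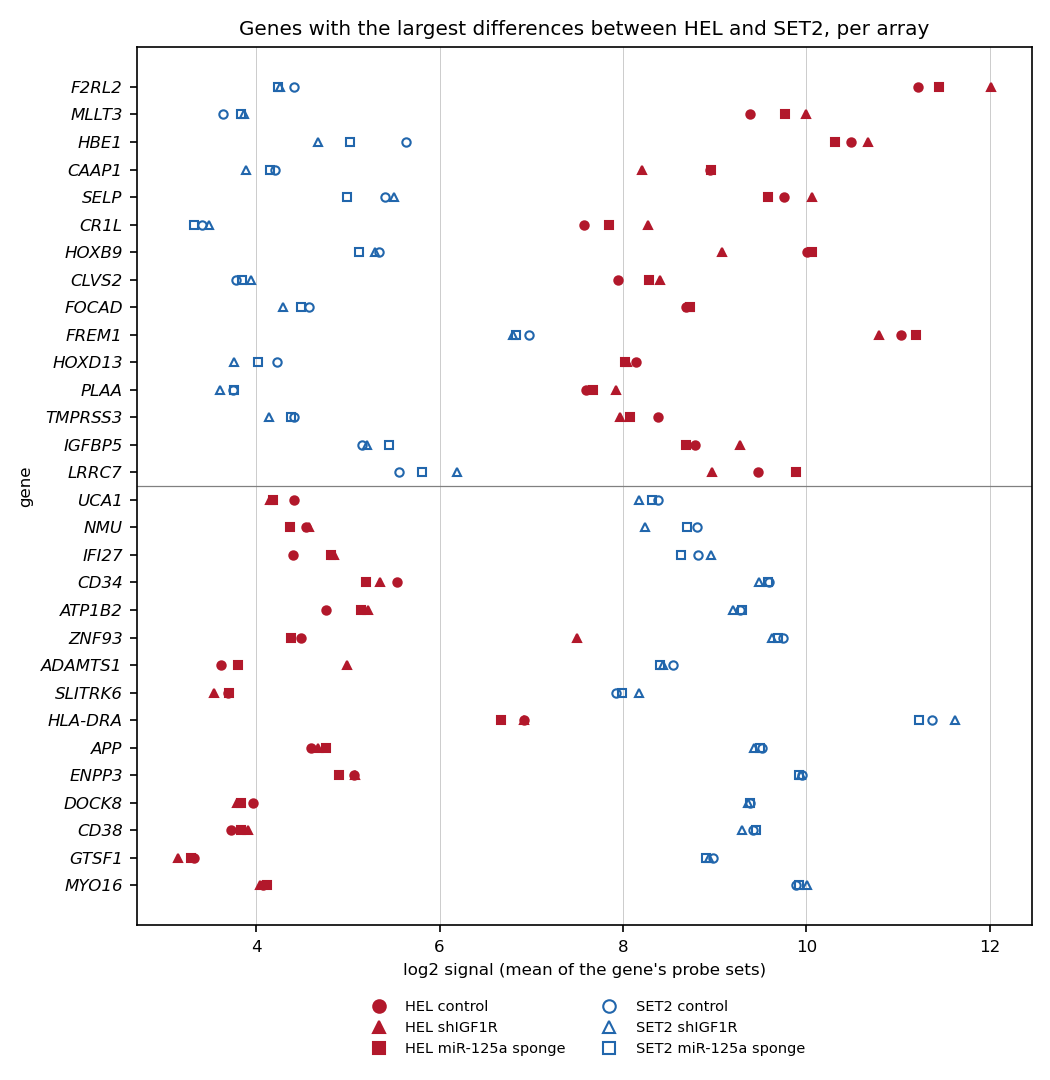
Log2 signal on each array (x axis) of the 15 genes most raised and the 15 most lowered in HEL among the genes ranked (rows). The ranking held called genes with at least 3 probe sets, without small RNAs, unnamed symbols, Y-linked genes and XIST. HEL arrays are filled red marks, SET2 arrays are open blue marks, and the treatment is shown by the shape of the mark. HEL and SET2 marks do not overlap in any row, and the ZNF93 mark of HEL shIGF1R at 7.50 lies nearest to the other line.

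Among the blood cell lists, platelet receptor genes had the largest share of members higher in HEL. Of 25 measured members 15 were higher and 3 lower in HEL, against 11.6% and 13.0% of all genes, and the median difference was 0.83 against 0.01 over all genes. F2RL2, given above, led the list. GP9, a subunit of the receptor that binds von Willebrand factor, had 8.73, 7.84 and 8.55 in HEL arrays, against 5.18, 4.98 and 5.35 in SET2 arrays. The difference was 3.21, and the lowest HEL array lay more than 2 log2 units above the highest SET2 array. ITGA2, a collagen receptor subunit, had 7.44, 7.94 and 7.46 in HEL arrays, against 4.52, 4.13 and 4.03 in SET2 arrays (difference 3.39). ITGB3, the beta subunit of the fibrinogen receptor, differed by 2.31. Its alpha partner ITGA2B had 10.82, 10.51 and 10.83 in HEL arrays, against 10.33, 10.57 and 10.23 in SET2 arrays. These ranges overlapped, and the difference of 0.34 was not called. ESAM, an adhesion molecule of platelets and endothelium, was 2.89 higher in HEL. CD36, a receptor for thrombospondin and fatty acids, ran the other way, with 6.88, 7.24 and 6.82 in HEL arrays, against 9.22, 9.08 and 9.17 in SET2 arrays (difference -2.18). The other members lower in HEL were CLEC1B, the podoplanin receptor, and P2RY1, an ADP receptor, by less than 1 log2 unit each. Their calls were lost without the sponge arrays (adjusted p = 0.0594 for CLEC1B and 0.203 for P2RY1), and that of P2RY1 also without the control arrays (adjusted p = 0.161). Without the sponge arrays CD36 was the 1 member called lower in HEL. By the brightest probe set CLEC1B had an adjusted p of 0.107 and P2RY1 one of 0.134, and by the median P2RY1 had 0.278.

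Platelet granule and cytoskeleton genes showed 11 of 28 measured members higher and 2 lower in HEL, with a median difference of 0.26. Without the shIGF1R arrays 12 were higher and 4 lower in HEL. PLEK, encoding pleckstrin, the main protein kinase C substrate of platelets, had 11.39, 11.04 and 11.63 in HEL arrays, against 8.19, 7.41 and 7.87 in SET2 arrays. The HEL array was at least 3 log2 units above the SET2 array of the same treatment. ANGPT1 (2.45), an angiopoietin, and MMRN1 (2.61), the granule protein multimerin, were also higher in HEL. At MMRN1 the HEL shIGF1R array stood above the other HEL arrays, with 8.44 against 7.26 in HEL control and 7.30 in the HEL sponge array. SRGN, the granule proteoglycan serglycin, had 9.27, 9.46 and 9.30 in HEL arrays, against 11.34, 11.28 and 11.31 in SET2 arrays, and was lower in HEL (difference -1.96). THBS1, thrombospondin, moved with the arrays labelled shIGF1R in both lines: it had 7.47, 10.01 and 7.60 in HEL arrays, against 7.41, 8.67 and 6.96 in SET2 arrays. The ranges overlapped and the gene was not called (adjusted p = 0.0773). PF4, platelet factor 4, did not differ beyond the spread of the arrays, at 7.27, 7.08 and 7.04 in HEL arrays, against 7.10, 7.37 and 7.21 in SET2 arrays.

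Red cell genes were split between the lines. Of the 9 measured globins with AHSP, the chaperone of alpha globin, 1 was higher and 5 were lower in HEL, with a median of -0.50. HBE1 was the 1 higher in HEL. HBG1, a fetal globin, had 9.59, 9.36 and 9.40 in HEL arrays, against 11.90, 11.46 and 11.74 in SET2 arrays (difference -2.25), but it rested on 1 probe set. HBG2, nearly identical to HBG1 in sequence, rested on 5 probe sets and differed by 0.20 (not called), so the fetal globins are uncertain. HBB, the adult beta globin, had 4.01, 3.89 and 4.07 in HEL arrays, against 5.38, 5.34 and 5.07 in SET2 arrays. It was lower in HEL on all 3 treatments (difference -1.28). AHSP had 4.75, 4.46 and 4.75 in HEL arrays, against 6.01, 5.91 and 5.63 in SET2 arrays, but by its brightest probe set alone the difference was -0.08 (adjusted p = 0.83). HBZ, the embryonic zeta globin, averaged 4.98 ± 0.95 in HEL and 5.71 ± 0.42 in SET2 (SD, n = 3 arrays each). HEL control, at 5.65, lay above SET2 shIGF1R, at 5.22, so the lines overlapped, and its call (adjusted p = 0.0441) was lost without the shIGF1R arrays (0.0621) and without the sponge arrays (0.114), as well as by the median (0.059) and the brightest probe set (0.188). Without the sponge arrays 3 members of the list were lower in HEL.

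Of 24 measured red cell membrane and blood group genes, 9 were higher and 6 lower in HEL, with a median of 0.17. SLC4A1, the anion exchanger band 3, had 4.41, 4.39 and 4.49 in HEL arrays, against 7.32, 7.57 and 6.86 in SET2 arrays, a difference of -2.82. EPB42, protein 4.2, which binds band 3 beneath the membrane, ran opposite, with 10.03, 9.38 and 9.96 in HEL arrays, against 8.04, 7.95 and 7.82 in SET2 arrays. The lines were separated without overlap at both members of this pair, in opposite directions. RHD, the Rhesus D antigen gene, had 9.47, 9.35 and 9.29 in HEL arrays, against 7.67, 6.63 and 7.26 in SET2 arrays (difference 2.18), and its homologue RHCE differed by 0.98. As RHD and RHCE share most of their sequence, the split between them is uncertain. ADD2 (-2.74), a beta adducin of the membrane skeleton, TMOD1 (-1.71), the actin cap tropomodulin, and BCAM (-1.48), the Lutheran blood group antigen, were lower in HEL. By the brightest probe set BCAM was not called (difference -0.34, adjusted p = 0.288). The tetraspanin gene TSPAN33 was higher in HEL, by 2.56.

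Heme and iron genes differed in few members. Of 11 measured heme synthesis genes none was higher and 3 were lower in HEL, led by FECH, which inserts the iron into heme, with 8.24, 7.48 and 8.26 in HEL arrays, against 9.32, 9.30 and 9.27 in SET2 arrays. FECH was lower in HEL on each treatment pair (difference -1.30). The 3 calls became 1 without the control arrays and 1 without the sponge arrays, and 5 without the shIGF1R arrays, of which 3 were higher in HEL. Of 18 iron genes 1 was higher and 5 were lower in HEL, and the 6 calls became 2 without the control arrays and 2 without the sponge arrays. TF, the iron carrier transferrin, was the 1 that was higher, with 7.91, 6.73 and 7.82 in HEL arrays, against 4.93, 4.58 and 4.84 in SET2 arrays. SLC40A1, the iron exporter ferroportin, had 9.63, 9.92 and 9.59 in HEL arrays, against 11.15, 10.99 and 11.05 in SET2 arrays. TFRC, the transferrin receptor, was lower in HEL (difference -0.86), a call lost without the control arrays (adjusted p = 0.0571) and without the sponge arrays (0.0621). By the brightest probe set neither SLC40A1 (difference -0.83, adjusted p = 0.0614) nor TFRC (difference -0.51, adjusted p = 0.269) was called, and by the median TFRC was not (adjusted p = 0.0587).

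Of 30 erythroid and megakaryocyte transcription factors, 3 were higher and 10 lower in HEL, with a median of -0.32. The ETS factors FLI1 and ERG, close relatives that both act in megakaryocytes and stem cells, differed in opposite directions. FLI1 had 9.24, 9.50 and 9.42 in HEL arrays, against 7.18, 6.95 and 7.09 in SET2 arrays (difference 2.31). ERG had 6.12, 7.05 and 6.01 in HEL arrays, against 8.88, 8.80 and 8.78 in SET2 arrays (difference -2.42). Neither gene's arrays overlapped between the lines. KLF1, the activator of beta globin, averaged 8.06 ± 0.23 in HEL and 9.04 ± 0.07 in SET2 (SD, n = 3 arrays each, difference -0.98), but by the median of its probe sets the difference was -0.10 (adjusted p = 0.81). SPI1 (PU.1), a myeloid ETS factor that antagonises GATA1, was 0.87 higher in HEL. GATA1, the factor that both lineages need, had 10.43, 9.96 and 10.38 in HEL arrays, against 10.04, 9.98 and 10.12 in SET2 arrays. Its arrays overlapped and its difference of 0.21 was not called, nor were those of TAL1 (0.17), GATA2 (-0.33) and NFE2 (-0.29).

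At MEF2C, a MADS box factor of megakaryocytes and lymphoid cells, probe sets of the same gene differed in opposite directions. Over its 19 probe sets the average difference was 0.11 (adjusted p = 0.621). In the fit over probe sets, 5.12% of 259224 were called, and 2.49% were 2-fold or more higher and 2.63% lower in HEL. Of all 3731 genes with a probe set past 2-fold, 2 genes had at least 3 such probe sets in each direction, MEF2C and HLA-DPB1. Probe set 16997970 of MEF2C had 3.03, 2.72 and 4.07 in HEL arrays, against 10.08, 9.90 and 9.67 in SET2 arrays, and 16997972 had 5.02, 5.25 and 6.22 in HEL arrays, against 11.18, 10.98 and 10.90 in SET2 arrays. Probe set 16997962 had 12.29, 12.28 and 12.56 in HEL arrays, against 11.07, 10.97 and 11.15 in SET2 arrays. The differences were -6.61 and -5.52 at the first of these and 1.31 at the last. In all, 9 of the 19 were called higher in HEL, with differences of 1.31 to 2.64, and 4 were called lower, with differences of -6.61 to -1.94. The average of MEF2C is therefore no measure of its level in either line. Which exons these probe sets cover was not analysed here.

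**Figure D2:**
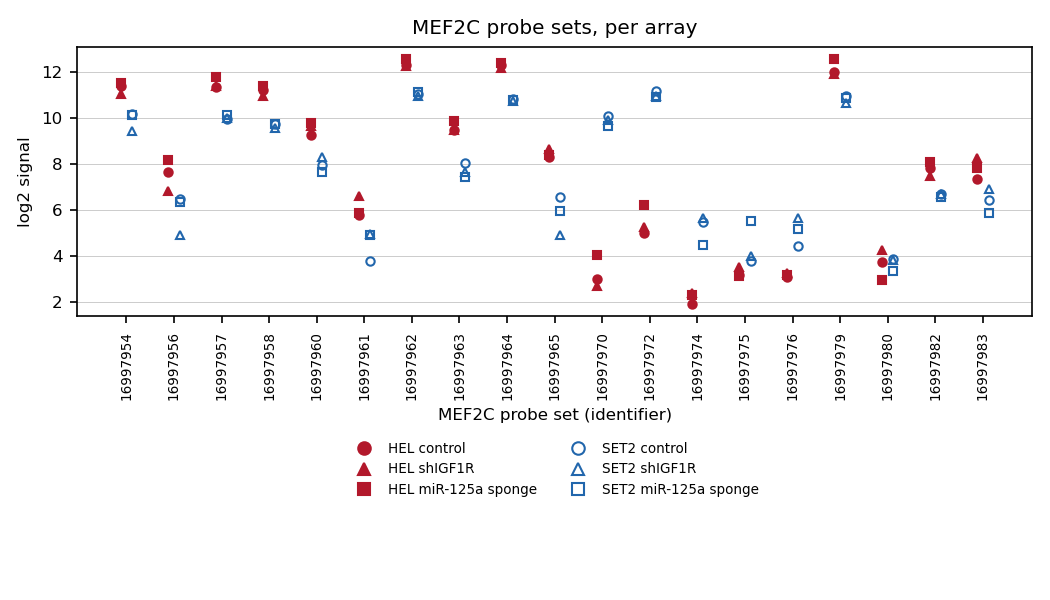
Log2 signal on each array (y axis) of the 19 probe sets of MEF2C (x axis), with HEL arrays as filled red marks, SET2 arrays as open blue marks, and the treatment shown by the shape of the mark. At probe sets 16997970 and 16997972 the HEL marks lie below all SET2 marks by more than 4 log2 units, while at most others they lie above.

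Markers of other blood cells did not move as a group. Of 19 measured granulocyte granule genes 2 were higher (10.5%) and 3 lower (15.8%) in HEL, near the 11.6% and 13.0% of all genes. The counts were 1 higher and 2 lower without the control arrays. They were 4 and 3 without the shIGF1R arrays, and 1 and 3 without the sponge arrays. MPO, the myeloperoxidase that defines the granulocyte series, had 4.54, 4.14 and 4.32 in HEL arrays, against 4.71, 4.27 and 4.55 in SET2 arrays. Its ranges overlapped and it was not called, nor was the elastase gene ELANE. MS4A3, a cycle regulator of granulocyte progenitors, was higher in HEL, with 10.59, 9.90 and 10.70 in HEL arrays, against 8.24, 7.46 and 8.19 in SET2 arrays. CST7, the cystatin that limits granule proteases, had 7.76, 7.22 and 7.70 in HEL arrays, against 10.24, 9.84 and 10.10 in SET2 arrays (difference -2.50). LYZ, lysozyme, was lower in HEL as well (difference -1.47). Of 34 monocyte surface genes 6 were higher (17.6%) and 5 lower (14.7%) in HEL, against 11.6% and 13.0% of all genes. ITGAM (CD11b) had 5.15, 5.94 and 5.52 in HEL arrays, against 8.45, 7.51 and 8.37 in SET2 arrays (difference -2.58), but by its brightest probe set the difference was -0.41 (adjusted p = 0.176). The inhibitory receptor gene CD300LF was 2.55 higher in HEL. Of 29 lymphoid genes 3 were higher and 2 lower in HEL, below the shares over all genes, with 2 higher and 1 lower without the control arrays and 1 each way without the sponge arrays. CD2 had 6.62, 7.30 and 6.75 in HEL arrays, against 4.89, 4.81 and 4.61 in SET2 arrays, while CD7 had 6.88, 6.04 and 6.83 in HEL arrays, against 8.23, 8.09 and 7.99 in SET2 arrays. Both are T cell surface proteins, and they differed in opposite directions.

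Stem and progenitor markers were divided as well, with 5 of 22 higher and 7 lower in HEL. CD34, the surface mucin used to sort progenitors, had 5.53, 5.34 and 5.20 in HEL arrays, against 9.59, 9.49 and 9.58 in SET2 arrays (difference -4.20). ALDH1A1 (-1.87), a retinaldehyde dehydrogenase, and ABCG2 (-1.85), a drug efflux pump, were also lower in HEL. The endothelial and stem cell receptors KDR and TEK ran opposite. KDR, a VEGF receptor, had 8.48, 8.25 and 8.42 in HEL arrays, against 5.45, 5.02 and 5.13 in SET2 arrays, a difference of 3.18. TEK, the angiopoietin receptor, differed by 2.17, in the same direction as its ligand gene ANGPT1. By the brightest probe set neither ABCG2 (difference -0.26, adjusted p = 0.404) nor TEK (0.76, adjusted p = 0.0938) was called. KIT, the stem cell factor receptor, had 9.70, 8.53 and 9.77 in HEL arrays, against 9.90, 10.19 and 9.64 in SET2 arrays, which overlapped and were not called.

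HOX and MEIS genes, which set position in the embryo and self-renewal in blood progenitors, were called higher in HEL in 14 of 43 and lower in 1, with a median of 0.23. HOXB9 had 10.00, 9.08 and 10.07 in HEL arrays, against 5.33, 5.30 and 5.12 in SET2 arrays, and HOXD13 had 8.15, 8.04 and 8.03 in HEL arrays, against 4.23, 3.76 and 4.02 in SET2 arrays. HOXC6 (2.34), HOXB7 (1.78) and MEIS1 (1.17), a cofactor of HOX proteins, were also higher in HEL. HOXA4 was the 1 member lower in HEL, with 3.67, 3.61 and 3.96 in HEL arrays, against 5.88, 5.87 and 5.53 in SET2 arrays. HOXA genes were thus on both sides, since HOXA10 (0.96), HOXA11 (0.58) and HOXA13 (0.71) were higher in HEL. The 14 higher calls became 9 without the control arrays. At HOXC6 the direction turned when the gene was measured by its brightest probe set alone (-0.61, adjusted p = 0.172).

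HLA class II genes were lower in HEL almost throughout. Of 15 measured members of the list, which holds the HLA-D genes with CD74 and CIITA, 14 were lower and none was higher in HEL, with a median of -1.59. The 14 became 13 without the sponge arrays, and the count was again 14 without either other treatment. HLA-DRA, the alpha chain of HLA-DR, had 6.92, 6.92 and 6.67 in HEL arrays, against 11.38, 11.62 and 11.23 in SET2 arrays, a difference of -4.57. CIITA, the coactivator that switches on the class II promoters, had 6.76, 6.64 and 6.96 in HEL arrays, against 8.84, 9.09 and 8.82 in SET2 arrays (difference -2.13). At both genes every HEL array lay more than 1 log2 unit below every SET2 array. HLA-DQA1 had 4.28, 4.13 and 4.26 in HEL arrays, against 7.28, 7.54 and 7.10 in SET2 arrays, and HLA-DQA2 had 4.28, 4.27 and 4.55 in HEL arrays, against 6.62, 6.97 and 6.67 in SET2 arrays. CD74, the invariant chain that escorts class II molecules, was lower in HEL (difference -1.74). HLA-DRB5 was the member not called, at -0.02. These genes are close copies of each other and differ between people, so a probe set can read a neighbour or an allele, and values of single HLA-D genes are uncertain. HLA-DPB1 shows the limit: of its 69 probe sets, which hold 22 distinct sets of values, 48 were called lower and 7 higher in HEL. The 7 hold the same values, 9.09, 8.95 and 9.14 in HEL arrays, against 2.77, 3.85 and 3.53 in SET2 arrays, while probe set 17028421 had 2.91, 2.72 and 3.45 in HEL arrays, against 12.50, 12.73 and 12.40 in SET2 arrays.

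Class II promoters are known for a conserved S-X-Y module whose Y box binds NF-Y. The Y box core CTGATTGG was searched on both strands in the RefSeq promoter windows of GRCh38.p14, which run from 250 bases before to 50 bases after each gene start. It was found in 6 of 13 class II members with an entry (46.2%), among them 5 of 12 lower in HEL and the 1 not called, and in 1393 of all 35116 windows (3.97%). The windows of HLA-DQA2 (chr6:32741141-32741440, plus strand) and HLA-DQB1 (chr6:32666608-32666907, minus strand) are shown as members lower in HEL that hold it, with the match in capitals. The match begins 71 bases before the start of HLA-DQA2 and 91 bases before that of HLA-DQB1. A match is a string of letters and not a measured site.
HLA-DQA2: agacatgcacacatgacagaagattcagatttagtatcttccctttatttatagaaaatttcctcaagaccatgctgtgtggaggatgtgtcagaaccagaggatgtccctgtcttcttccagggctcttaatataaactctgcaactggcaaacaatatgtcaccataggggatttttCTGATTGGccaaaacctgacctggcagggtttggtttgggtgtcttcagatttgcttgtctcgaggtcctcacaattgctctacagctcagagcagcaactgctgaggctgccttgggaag
HLA-DQB1: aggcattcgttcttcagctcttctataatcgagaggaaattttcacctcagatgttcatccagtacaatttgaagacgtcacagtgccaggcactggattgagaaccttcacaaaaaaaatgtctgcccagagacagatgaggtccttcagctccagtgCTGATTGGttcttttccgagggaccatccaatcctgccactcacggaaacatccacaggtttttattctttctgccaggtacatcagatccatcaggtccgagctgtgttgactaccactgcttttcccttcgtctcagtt

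HLA class I and antigen processing genes were lower in HEL in 12 of 20 measured members and higher in none, with a median of -0.61. TAP1, which pumps peptides into the endoplasmic reticulum, had 8.12, 6.69 and 8.16 in HEL arrays, against 9.46, 9.39 and 9.28 in SET2 arrays (difference -1.72). The HEL shIGF1R array was the lowest, and all HEL arrays lay below all SET2 arrays. HLA-C had 7.92, 6.90 and 8.15 in HEL arrays, against 8.83, 8.53 and 8.74 in SET2 arrays. Of its 9 probe sets, called or not, 7 were lower and 2 higher in HEL, so its value is uncertain. ERAP2 (-1.39), a peptide trimming enzyme of the endoplasmic reticulum, TAPBP (-1.15), tapasin, and B2M (-0.63), the light chain of class I, were lower in HEL too. The 12 lower calls became 6 without the sponge arrays, and without the shIGF1R arrays 1 member was higher and 11 were lower in HEL.

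Interferon response genes were lower in HEL in 22 of 43 measured members and higher in 2, with a median of -0.60. GBP2, a guanylate-binding protein, had 4.02, 4.05 and 3.74 in HEL arrays, against 7.86, 7.93 and 7.72 in SET2 arrays. Its relative GBP1 had 4.53, 5.60 and 4.74 in HEL arrays, against 8.66, 8.57 and 8.63 in SET2 arrays. The differences were -3.90 for GBP2 and -3.66 for GBP1, with no overlap. BST2, tetherin, had 3.98, 3.94 and 4.37 in HEL arrays, against 7.81, 7.23 and 7.98 in SET2 arrays, and IFI27, a mitochondrial interferon-induced protein gene, had 4.40, 4.85 and 4.81 in HEL arrays, against 8.82, 8.96 and 8.63 in SET2 arrays. MX2, a restriction factor that acts at the nuclear pore, was the clearest exception, with 7.35, 7.32 and 7.23 in HEL arrays, against 4.34, 4.30 and 4.62 in SET2 arrays (difference 2.87). HERC5, the ligase that attaches ISG15, was 0.77 higher in HEL, a call lost by the median (adjusted p = 0.075) and the brightest probe set (0.0625). IFITM1, which hinders viral entry, had 9.45, 9.21 and 9.13 in HEL arrays, against 8.94, 8.91 and 8.91 in SET2 arrays, and its difference of 0.35 was not called (adjusted p = 0.0903). The list as a whole was thus lower in HEL in many members but not in every one.

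The core of the interferon-stimulated response element, GAAANNGAAA, was searched in the same windows on both strands. It was found in 22 of 33 interferon members with an entry (66.7%), against 1255 of 35116 windows (3.57%). It was found in 12 of 18 members lower in HEL (66.7%) and in 9 of 14 members not called (64.3%), and the 1 member higher in HEL with an entry held it. Windows are shown for IFI27 (chr14:94110486-94110785, plus strand), GBP1 (chr1:89065159-89065458, minus strand) and BST2 (chr19:17405581-17405880, minus strand), which were lower in HEL, and for IFITM1 (chr11:313790-314089, plus strand), which was not called, with the matches in capitals. The matches begin 108 and 95 bases before the start of IFI27, 127 before that of GBP1, 130 and 124 before that of BST2, where they overlap, and 40 and 6 before that of IFITM1.
IFI27: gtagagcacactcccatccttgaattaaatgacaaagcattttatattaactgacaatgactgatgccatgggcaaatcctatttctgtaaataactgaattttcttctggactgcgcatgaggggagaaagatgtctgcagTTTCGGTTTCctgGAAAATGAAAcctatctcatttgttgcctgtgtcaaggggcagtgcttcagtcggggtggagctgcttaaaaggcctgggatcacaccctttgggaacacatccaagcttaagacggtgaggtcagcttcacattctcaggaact
GBP1: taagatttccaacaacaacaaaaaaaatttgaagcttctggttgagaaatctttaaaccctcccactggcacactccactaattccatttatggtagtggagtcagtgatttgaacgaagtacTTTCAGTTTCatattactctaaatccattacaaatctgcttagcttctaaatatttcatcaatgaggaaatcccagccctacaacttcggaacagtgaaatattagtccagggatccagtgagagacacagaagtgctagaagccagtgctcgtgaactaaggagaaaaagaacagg
BST2: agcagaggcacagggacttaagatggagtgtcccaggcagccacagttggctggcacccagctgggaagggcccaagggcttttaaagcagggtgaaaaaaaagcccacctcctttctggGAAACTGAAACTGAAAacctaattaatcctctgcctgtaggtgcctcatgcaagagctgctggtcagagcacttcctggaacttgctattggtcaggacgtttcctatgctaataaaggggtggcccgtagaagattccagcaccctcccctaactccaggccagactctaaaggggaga
IFITM1: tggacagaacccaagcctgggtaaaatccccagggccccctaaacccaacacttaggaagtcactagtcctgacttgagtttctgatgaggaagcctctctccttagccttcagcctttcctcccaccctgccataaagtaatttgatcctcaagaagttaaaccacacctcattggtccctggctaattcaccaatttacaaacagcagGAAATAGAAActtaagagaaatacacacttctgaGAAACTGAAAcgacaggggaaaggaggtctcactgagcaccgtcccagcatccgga

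**Figure D3:**
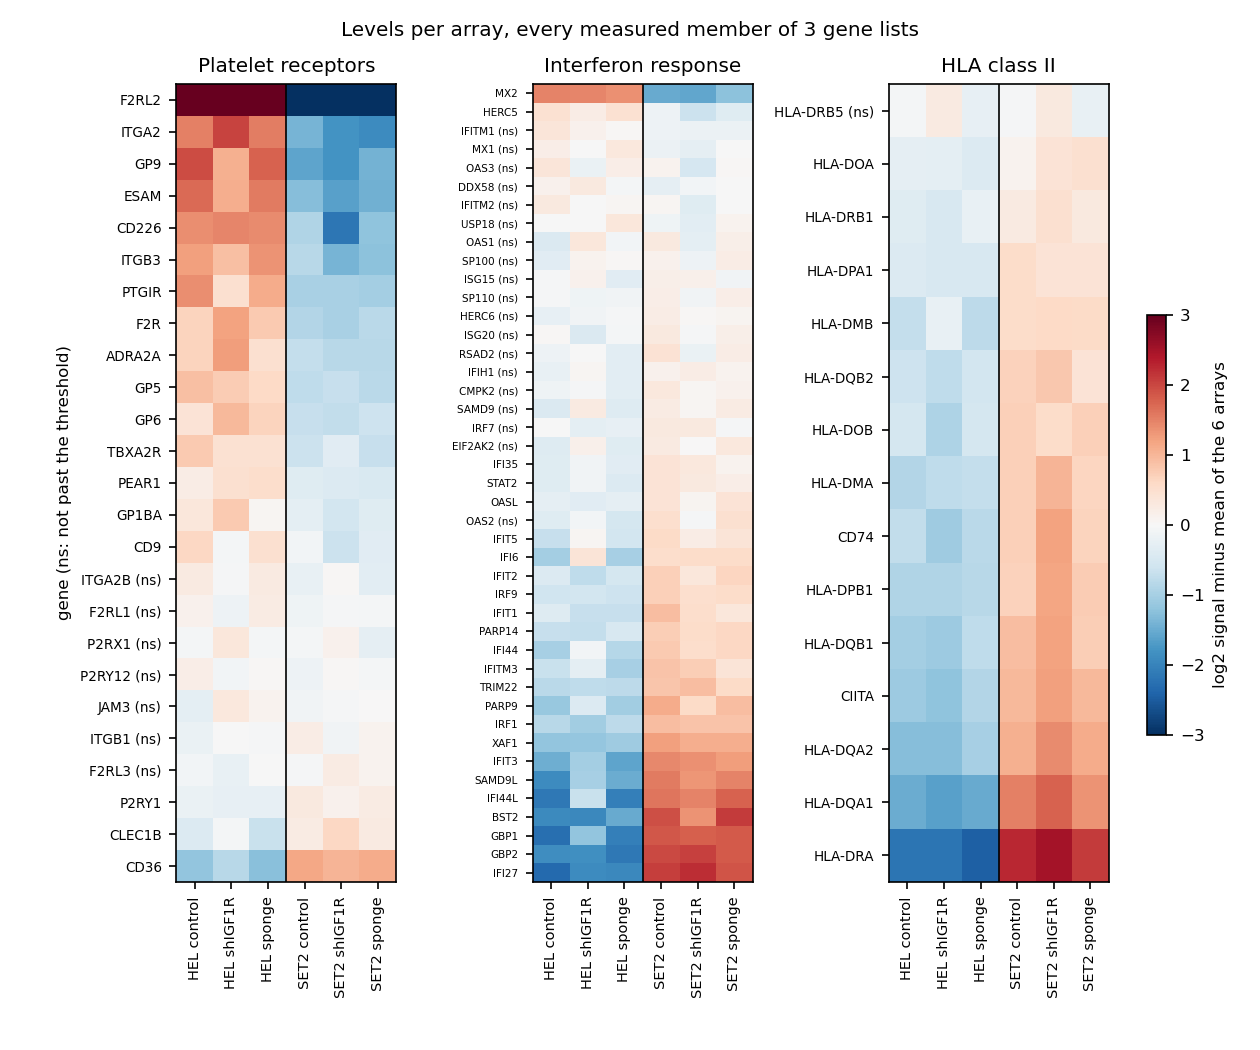
Log2 signal on each array (columns, HEL left and SET2 right) minus the mean of the 6 arrays, for every measured member (rows) of the platelet receptor, interferon response and HLA class II lists, with ns marking members that were not called and colours that stop at 3 log2 units. Most platelet receptor rows are red in the HEL columns, and most interferon rows and 14 of 15 class II rows are blue there, with MX2 the reddest interferon row.

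Cytokine and growth factor receptor genes were lower in HEL in 20 of 59 measured members and higher in 6. IL3RA, the alpha chain of the interleukin 3 receptor, had 4.84, 4.84 and 4.56 in HEL arrays, against 7.14, 7.50 and 6.87 in SET2 arrays. CSF2RA, the alpha chain of the GM-CSF receptor, had 4.92, 4.61 and 4.70 in HEL arrays, against 6.82, 6.79 and 6.76 in SET2 arrays. CSF2RB, the beta chain that both receptors share, was lower in HEL too (difference -1.44), in the average of its probe sets. Its differences by treatment were -1.02, -2.39 and -0.905, largest on the shIGF1R arrays. By the brightest probe set neither CSF2RA (difference -0.37, adjusted p = 0.232) nor CSF2RB (difference -1.18, adjusted p = 0.0944) was called. EPOR, the erythropoietin receptor, had 7.78, 7.62 and 7.78 in HEL arrays, against 8.53, 8.27 and 8.42 in SET2 arrays (difference -0.68). IL21R (2.06) and IL13RA1 (1.65) were higher in HEL. At IL13RA1 the HEL shIGF1R array had 7.80, against 6.64 in HEL control and 6.60 in the HEL sponge array.

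Of 32 JAK and STAT pathway genes 8 were higher and 5 lower in HEL. JAK2 itself had 10.39, 10.55 and 10.54 in HEL arrays, against 10.17, 10.24 and 10.25 in SET2 arrays. Its difference of 0.27 was not called (adjusted p = 0.144), although the arrays did not overlap. CBL, the ubiquitin ligase that takes activated receptors out of signalling, had 9.04, 8.63 and 9.36 in HEL arrays, against 6.42, 6.31 and 6.37 in SET2 arrays (difference 2.64). Other negative regulators were also higher in HEL, SOCS3 by 1.58 and SH2B3 (LNK) by 1.06, while PTPN1, the phosphatase PTP1B, was lower (difference -1.65). By treatment the differences were 1.11, 2.53 and 1.11 at SOCS3 and 0.75, 1.67 and 0.75 at SH2B3, largest on the shIGF1R arrays. STAT4 had 5.75, 5.78 and 5.46 in HEL arrays, against 8.45, 8.28 and 8.48 in SET2 arrays, and JAK3 was 0.98 higher in HEL. Inhibitors of the pathway were thus found on both sides. Without the control arrays 8 were higher and 2 lower in HEL, and without the sponge arrays 6 and 2. SH2B3 was not called by the median of its probe sets (adjusted p = 0.0843). STAT2 (-0.60, lower in HEL) lost its call without the control arrays (adjusted p = 0.107) and without the sponge arrays (0.103), by the median (0.0521) and by the brightest probe set (0.0729).

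Of 24 genes of the insulin-like growth factor axis 5 were higher and 5 lower in HEL, with 3 higher and 5 lower without the control arrays and again without the sponge arrays. INSR, the insulin receptor, had 4.67, 4.55 and 4.41 in HEL arrays, against 6.75, 6.99 and 6.61 in SET2 arrays (difference -2.24), so that it differed more than IGF1R did. The secreted binding proteins were divided. IGFBP5 had 8.79, 9.27 and 8.69 in HEL arrays, against 5.15, 5.21 and 5.45 in SET2 arrays, and IGFBP2 was 1.02 higher in HEL. IGFBP7 had 6.46, 7.15 and 6.84 in HEL arrays, against 9.13, 9.42 and 9.30 in SET2 arrays, and IGFBP4 was lower in HEL (difference -2.18). IGF2BP1, which binds the IGF2 messenger and is an oncofetal protein, had 9.37, 9.56 and 9.43 in HEL arrays, against 6.44, 6.31 and 6.75 in SET2 arrays. None of these genes overlapped between the lines, but they were picked among called genes, and 39.2% of all genes did not overlap.

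ZFAND2B, which encodes the proteasome adaptor AIRAPL that the study is about, had 6.80, 6.45 and 6.64 in HEL arrays, against 5.67, 5.80 and 5.68 in SET2 arrays. It was 0.91 higher in HEL (95% confidence interval 0.59 to 1.24, adjusted p = 0.00377), without overlap. Among the 43 proteasome and ZFAND family genes 5 were higher (11.6%) and 13 lower (30.2%) in HEL, with a median of -0.28. Over all genes the shares were 11.6% and 13.0%. ZFAND4 was the lowest of them, with 4.35, 5.38 and 4.56 in HEL arrays, against 6.46, 6.76 and 6.54 in SET2 arrays (difference -1.82). Without the control arrays 1 was higher and 3 lower in HEL, and without the sponge arrays 1 each way, so this count depends on which arrays entered. Calls over all genes fell as well, from 24.5% to 14.4% without the control arrays and 12.9% without the sponge arrays. Without the sponge arrays PSMA7, a core particle subunit gene higher in HEL, had an adjusted p of 0.0703, and PSMA6, one lower in HEL, had 0.0607. By the brightest probe set these were 0.0839 and 0.0822.

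Cell cycle and survival genes differed in a few members of known role. Of 19 cell cycle inhibitors and D-type cyclins with their partners 2 were higher (10.5%) and 4 lower (21.1%) in HEL. Over all genes the shares were 11.6% and 13.0%. Without the control arrays, and again without the sponge arrays, 2 were higher and 1 lower. CCND3, a D-type cyclin, had 8.02, 8.14 and 8.09 in HEL arrays, against 6.94, 6.85 and 7.02 in SET2 arrays, and its partner kinase gene CDK6 was lower in HEL (difference -0.96). The lines did not overlap at either gene. Of 56 replication and mitosis genes 7 were higher and 7 lower in HEL, near the share over all genes. Without the control arrays 3 were higher and 1 lower, without the shIGF1R arrays 7 and 11, and without the sponge arrays 3 and 2. Among them CCNE1, cyclin E1 of the step into DNA replication, had 6.85, 5.71 and 6.86 in HEL arrays, against 8.79, 8.72 and 8.70 in SET2 arrays. Of 20 BCL2 family genes 2 (10.0%) were higher and none lower in HEL, below the 11.6% and 13.0% of all genes. Without the shIGF1R arrays 3 were higher and 2 lower, and without the sponge arrays 1 was higher. BCL2L1, which encodes the survival protein BCL-xL, was one of the 2 called higher on all arrays, with 9.37, 9.11 and 9.32 in HEL arrays, against 8.54, 7.98 and 8.37 in SET2 arrays. The other, BCL2L11 (BIM), lost its call without the sponge arrays (adjusted p = 0.0584), by the median (0.246) and by the brightest probe set (0.129).

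Of 30 genes of DNA methylation, histone modification and splicing that were listed for myeloid neoplasms, with relatives such as TET1 and DNMT3B, 4 were higher and 9 lower in HEL. TET1, a DNA demethylating enzyme, had 6.08, 6.08 and 6.17 in HEL arrays, against 7.46, 7.95 and 7.66 in SET2 arrays. KDM6A, a histone demethylase, was also lower in HEL (difference -1.27). DNMT3B, a DNA methyltransferase, had 8.39, 8.83 and 8.56 in HEL arrays, against 7.37, 7.24 and 7.16 in SET2 arrays, and NPM1, the nucleolar protein nucleophosmin, was 1.12 higher in HEL. The members named here did not overlap between the lines, but they were picked among called genes, and 39.2% of all genes did not overlap.

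**Figure D4:**
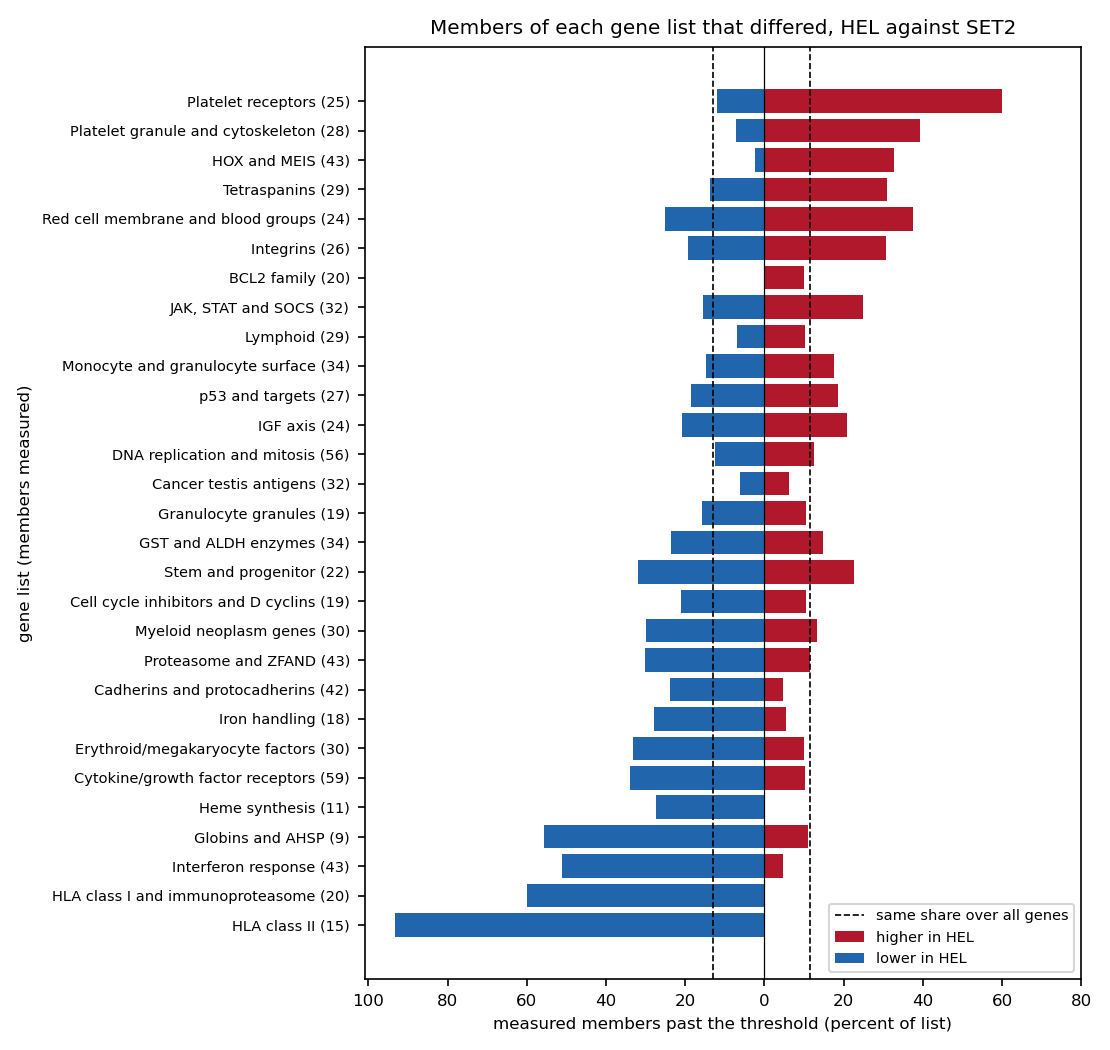
Share of measured members (x axis, percent) called higher in HEL (red bars, right) and lower in HEL (blue bars, left) for each of the 29 gene lists (rows, members measured in brackets), with dashed lines at the shares over all genes, 11.6% and 13.0%. HLA class II, HLA class I, globin and interferon rows reach farthest to the left, and platelet receptors farthest to the right.

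Several groups of neighbouring genes differed together. Along the chromosomes 22136 genes could be placed, and 35 runs of at least 5 neighbouring genes were called in the same direction, 11 higher and 24 lower in HEL. They held 260 genes. The longest lay on chromosomes 14 and 19. Runs depended on how a gene was measured and on the arrays: by the brightest probe set they held 67 genes, without the sponge arrays 73, without the control arrays 131 and without the shIGF1R arrays 404.

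On chromosome 9, the stretch from NFIB to IFT74 held 61 measured genes, of which 25 were higher and 2 lower in HEL. The other 34 were not called, and the median difference of the 61 was 0.12, against 0.01 over all genes. The stretch was chosen after the values had been seen, so its counts are a description. Without the control arrays 23 were higher and 1 lower in HEL, and without the sponge arrays 21 and none. NFIB, a nuclear factor I gene, had 8.89, 8.88 and 9.40 in HEL arrays, against 5.73, 5.86 and 5.85 in SET2 arrays. RPS6, a protein gene of the small ribosomal subunit, had 10.85, 10.77 and 10.91 in HEL arrays, against 8.65, 8.41 and 8.48 in SET2 arrays, a difference of 2.33. PSIP1, which encodes the chromatin tether LEDGF, had 10.17, 9.86 and 10.30 in HEL arrays, against 7.56, 7.31 and 7.53 in SET2 arrays. HAUS6 (2.42), of the spindle augmin complex, RRAGA (1.38), a GTPase gene of amino acid sensing, and MLLT3, FREM1, FOCAD, PLAA and CAAP1, given above, belong to the same stretch. The type I interferon genes of the stretch were not called. MTAP, the methionine salvage gene inside it, was not called either, with 4.04, 3.80 and 3.87 in HEL arrays, against 3.91, 4.10 and 3.76 in SET2 arrays. MTAP and most of these interferon genes lay below 4.35, the lower quartile of gene mean levels, in both lines. At such levels a gene cannot be told from background, so the lack of a call there is no sign of equal expression. JAK2, on the same chromosome but outside the stretch, differed by 0.27 as given, and DOCK8 by -5.52. Copy number was not analysed here.

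On chromosome 19, zinc finger genes of the ZNF, ZFP and HKR families, many of which encode KRAB repressors of transposable elements, were lower in HEL in 172 of 258 (66.7%) and higher in 1, with a median of -0.82. Zinc finger genes elsewhere were lower in 71 of 302 (23.5%), and the other 1214 genes of chromosome 19 in 173 (14.3%), against 13.0% of all genes. The 172 lower and 1 higher became 120 and 0 without the control arrays, 197 and 2 without the shIGF1R arrays, and 112 and 2 without the sponge arrays. Over all 22320 genes the 2893 called lower became 1655, 3392 and 1588 in the same order. ZNF506 had 3.10, 3.38 and 3.34 in HEL arrays, against 6.67, 6.12 and 6.99 in SET2 arrays, and ZNF69 had 3.25, 4.19 and 3.26 in HEL arrays, against 6.79, 7.41 and 6.86 in SET2 arrays. The lines did not overlap at either. ZNF793 had 4.29, 4.22 and 4.20 in HEL arrays, against 6.80, 6.99 and 6.97 in SET2 arrays. At several of them the HEL shIGF1R array lay closer to SET2 than the other HEL arrays did, as at ZNF253 (5.51, against 3.88 in HEL control and 4.13 in the HEL sponge array) and at ZNF829 (6.01, against 4.36 in HEL control and 4.45 in the HEL sponge array). ZNF253 was not called by its brightest probe set (adjusted p = 0.0726). The genes of this family are alike in sequence, and probe sets listed under several symbols were left out.

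On chromosome 14, the small nucleolar RNA genes SNORD113 and SNORD114, which lie in the imprinted DLK1 to MEG3 domain and are made from its maternal copy, were lower in HEL in 37 of 40 and higher in none, with a median of -2.90. SNORD114-20 had 2.59, 2.78 and 2.75 in HEL arrays, against 8.35, 8.28 and 8.39 in SET2 arrays. Each of these genes rested on few probe sets, often 1, and their copies are close in sequence, so single members are uncertain. MEG3, the long noncoding RNA gene of the same domain, had 4.22, 4.32 and 4.28 in HEL arrays, against 7.99, 7.64 and 7.92 in SET2 arrays, a difference of -3.58 (adjusted p = 1.52e-05). MEG3 and the small RNA genes were thus low in HEL together. DLK1, made from the paternal copy, was not called. Of its 11 probe sets 1 was called 2-fold or more higher and 1 lower in HEL, so its average is uncertain. In the other large imprinted group, SNORD115 and SNORD116 on chromosome 15, 3 of 43 were higher and none lower in HEL, but their median level was 2.63 in HEL and 2.58 in SET2, low in both lines. With any 1 treatment left out, the count of SNORD113 and SNORD114 genes called lower in HEL was 35 to 37.

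**Figure D5:**
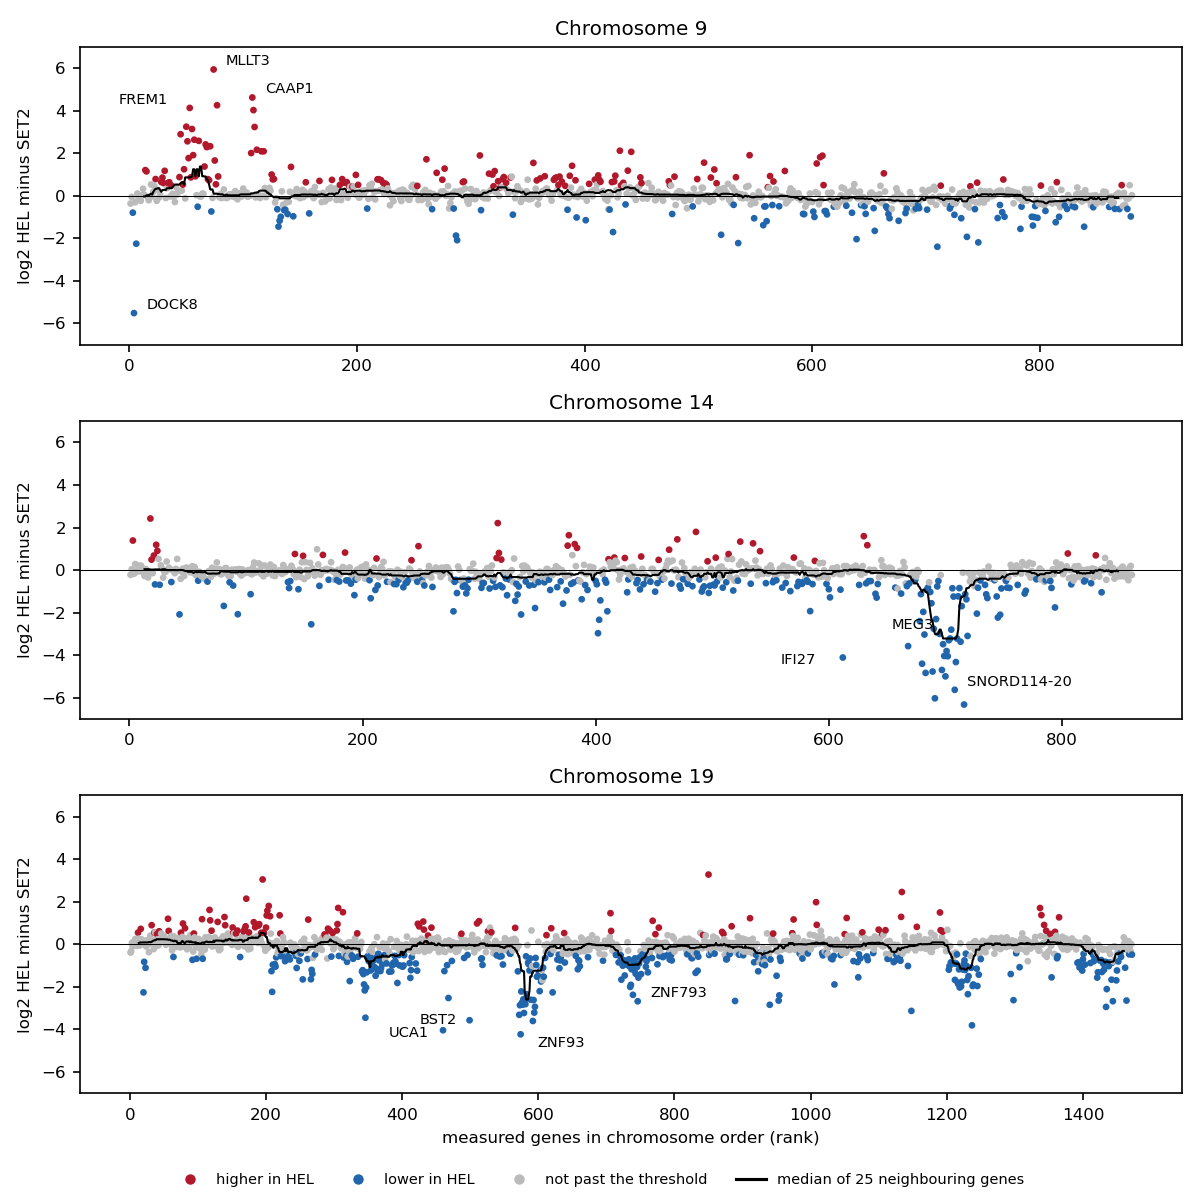
Difference HEL minus SET2 on the log2 scale (y axis) of every placed gene of chromosomes 9, 14 and 19, in the order of the genes along the chromosome (x axis, rank), coloured by call, with the median of 25 neighbouring genes as a black line. The line rises near the NFIB to IFT74 stretch of chromosome 9 and falls at the SNORD113 and SNORD114 genes of chromosome 14 and at several zinc finger clusters of chromosome 19.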

How the data were processed

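The 6 arrays are Affymetrix GeneChip Human Gene arrays, 1 for each line and treatment, hybridised with biotin-labelled RNA taken with Trizol, per the labels. The values are log2 signals per probe set in the table the authors deposited, for which the submitters' processing notes name Affymetrix Expression Console. How probe sets were summarised, background-corrected and normalised is not given in the sources used here, nor is the build. The range of the values, 1.61 to 13.99, is that of a log2 scale. No detection calls were used, so a gene near the lower end of the scale cannot be told from background.

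The 259224 probe sets annotated with a single symbol were averaged per symbol into 22320 genes (median 9.5 probe sets, 2618 genes with 1). Probe sets with several symbols (13116) or no listed gene (80519) were left out of these averages. Gene by gene, limma 3.58.1 (lmFit and eBayes, R 4.3.3) was fitted with line and treatment as terms, with 2 residual and 4.78 prior degrees of freedom. The two-sided p-values were adjusted over all genes by the Benjamini-Hochberg method. The treatment pairs the arrays by label, and with this term leaving out 1 array equals leaving out both arrays of its treatment. In simulated data of 22320 genes, 200 were changed and the noise was drawn independently for each array. There 100% of genes changed by 2 log2 units and 81% of those changed by 1 were recovered, with 10 false calls. The simulation held far fewer changed genes than were called here and no array that stood apart, so its rates need not hold for these arrays. With 6 arrays, precision is limited by their number.

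Gene lists (29, with 865 distinct symbols, of which 817 were measured), members and the naming rule were chosen with earlier results of these data known. The rule took IGF1R, ZFAND2B and JAK2, and the 15 genes with the largest difference each way. Those 15 came from called genes with at least 3 probe sets and the same sign under all treatments. Small RNAs, LOC, LINC, C-orf and other unnamed symbols, symbols not found in RefSeq, Y-linked genes and XIST were left out of that ranking. The rule also took up to 4 called members each way and the defining members of each list, and genes with probe sets called in opposite directions. Last, the rule took up to 4 genes of each run of at least 11 genes and of the longest runs of chromosome 9. B2M, CD74, HLA-DQB1, HLA-DRB5, IFITM1, HOXA10, HOXA11, HOXA13, GATA2, NFE2, TAL1, MEG3, DLK1, MTAP, the chromosome 9 stretch and the chromosome X run fall outside the rule and were chosen after their values were seen. The other measured symbols of the lists entered the counts and medians of their lists but are not named one by one. Symbols are those of the array annotation. Gene order and promoter windows come from RefSeq tables of GRCh38.p14, and no coordinates of probe sets are given. Software also included Python 3.11.15, matplotlib 3.10.9, pandas 2.3.3 and the R package data.table (1.17.8).

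Alternatives were the fit without treatment, the median or the brightest probe set of a gene, quantile normalisation, centring on array medians, dim genes or genes with few probe sets left out, a variance trend, identical probe sets counted once (added after the data had been seen), and leaving out each array and each treatment.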

Additional observations from a re-analysis of the deposited data

How the results depend on the processing

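The count of called genes was 5475 with 2582 higher and 2893 lower in HEL. It became 2613 (1235 higher, 1378 lower) when each gene was measured by its brightest probe set, 3214 (1559 higher, 1655 lower) without both control arrays and 2871 (1283 higher, 1588 lower) without both miR-125a sponge arrays. With 1 array left out at a time it ran from 2871 to 6330, with 1283 to 2938 higher and 1588 to 3392 lower in HEL. Members of the gene lists called were 322, with 179 by the brightest probe set, 211 without both sponge arrays, and 211 to 360 with 1 array left out. Genes in runs were 260, with 67 by the brightest probe set, 141 by the median of probe sets, 476 with dim genes left out, 131 without both control arrays, 73 without both sponge arrays, 404 without both shIGF1R arrays, and 73 to 404 with 1 array left out. Probe sets called were 13284, with 22171 without treatment as a block, 23252 with dim probe sets left out, and 2424 to 2963 with 1 array left out. The paired fit, with treatment as the block, was the main one, and without that block 5669 genes were called, of which 5173 were shared. The share of calls that were higher in HEL was 47.2%, and 44.7% to 49.1% over the alternatives. Of the 229 named genes, 226 were called. The brightest probe set ended the call of 55 and both ended the call and turned the direction of another 9, which were ALAD (0.033), NCAM1 (-0.31), GNLY (0.50), HOXC6 (-0.61), CDKN1A (0.023), PAGE5 (0.20), ITGB4 (0.12), TSPAN7 (-0.14) and ZRSR2 (0.017), and it called MEF2C. The median of probe sets ended 31 calls, the fit without the block 5, quantile normalisation 4, the variance trend 1, and leaving out the control, shIGF1R or sponge arrays 39, 4 and 39. Centring on array medians and counting identical probe sets once ended none of these calls. The brightest probe set uses 1 probe set a gene and a left-out treatment leaves 4 arrays; the cause of the other shifts was not tested.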

Other observations

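Adhesion genes were distributed unevenly between the lines. CDH1, E-cadherin, which holds epithelial and early red cells together, had 4.49, 4.52 and 4.70 in HEL arrays, against 8.08, 7.80 and 8.04 in SET2 arrays (difference -3.40), and CDH2, N-cadherin, had 3.96, 4.16 and 4.05 in HEL arrays, against 6.48, 6.27 and 6.45 in SET2 arrays. CDH5, the cadherin of endothelium, ran opposite, with 7.49, 6.04 and 7.55 in HEL arrays, against 4.94, 4.68 and 4.81 in SET2 arrays. In all, 10 of 42 cadherin and protocadherin genes were lower and 2 higher in HEL. Of 26 integrin genes 8 were higher and 5 lower in HEL, with 4 higher and 5 lower without the sponge arrays. ITGB7, a partner of lymphocyte homing integrins, had 5.30, 4.99 and 5.33 in HEL arrays, against 8.09, 7.76 and 7.83 in SET2 arrays, while ITGB5, a vitronectin receptor subunit, had 7.48, 6.95 and 7.18 in HEL arrays, against 5.80, 5.52 and 5.86 in SET2 arrays. By its brightest probe set ITGB5 differed by 0.18 and was not called (adjusted p = 0.589). Of 29 tetraspanin genes 9 were higher and 4 lower in HEL, with 6 and 2 without the control arrays and 2 and 2 without the sponge arrays.

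Of 34 glutathione transferase and aldehyde dehydrogenase genes 5 were higher (14.7%) and 8 lower (23.5%) in HEL, against 11.6% and 13.0% of all genes. The counts were 3 and 6 without the control arrays and 3 and 5 without the sponge arrays. GSTP1, a glutathione transferase, had 6.84, 6.46 and 6.47 in HEL arrays, against 8.61, 8.58 and 8.39 in SET2 arrays, and GSTT1 had 6.91, 6.61 and 6.73 in HEL arrays, against 5.00, 4.93 and 4.97 in SET2 arrays. The lines did not overlap at either gene, but by its brightest probe set GSTT1 differed by 0.11 and was not called (adjusted p = 0.824). ALDH1L2, a mitochondrial folate enzyme, was higher in HEL (difference 2.04), with 6.55, 4.71 and 6.59 in HEL arrays, against 4.06, 3.77 and 3.90 in SET2 arrays, and the HEL shIGF1R array lay nearest to SET2. PRAME, a tumour antigen of the germ line, had 7.14, 7.14 and 7.09 in HEL arrays, against 4.40, 4.40 and 4.37 in SET2 arrays. It was 1 of 2 members higher in HEL among 32 cancer testis genes, with 2 lower. Each count was 6.25% of the list, below the 11.6% and 13.0% of all genes. Without the control arrays 2 were higher and none lower. Of 27 genes of p53 and its targets 5 were higher and 5 lower in HEL, 18.5% each way. With the control arrays left out 5 were higher and 2 lower, and without the sponge arrays 3 and 2. SESN2, a stress-induced regulator of growth signalling, had 7.81, 6.32 and 7.59 in HEL arrays, against 6.14, 5.24 and 5.38 in SET2 arrays, though not called by its brightest probe set (adjusted p = 0.133), and TP53INP1 had 5.87, 6.11 and 6.28 in HEL arrays, against 7.60, 8.11 and 7.45 in SET2 arrays.

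Shares of called genes differed by chromosome. On chromosome 5, 19.7% of placed genes were higher and 6.11% lower in HEL. On chromosome 16, 4.0% were higher and 22.2% lower in HEL, and on chromosome 14, 4.77% were higher and 26.2% lower. In a fit over all probe sets, 928 of 80519 with no listed gene were higher and 1227 lower in HEL, 2.68% in all, against 4.91% of those with a single symbol.

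Within a line, the range over the 3 arrays reached 2 log2 units for 37 genes in HEL and 9 in SET2. In HEL the array farthest from the middle one was the shIGF1R array for 32 of the 37.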
